A study of Mus musculus with 2 samples.

Results

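Klf4 peaks were examined in the parts of the mouse genome where they lie most densely. Members are the peaks chosen by their number per 1 Mb bin. Chromosomes 1 to 19 and X were cut into fixed 1 Mb bins, and every peak was kept whose midpoint fell in a bin with 10 or more peak midpoints. These bins are called dense here. They numbered 160 and held 2176 of the 7298 peaks placed on a chromosome, or 29.8%, out of 7313 peaks in all. The other 5122 placed peaks lay in 1544 bins with 1 to 9 peaks and served as the comparison.

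The peaks come from chromatin immunoprecipitation followed by sequencing (ChIP-seq) with an antibody against Klf4, carried out on the mesenteric arcades of C57BL/6 mice on chow diet. One library came from animals labelled eYFP+/+ Klf4WT/WT and 1 from animals labelled eYFP+/+ Klf4delta/delta, and the protocol ties both genotypes to smooth muscle cells (SMC). eYFP, a fluorescent reporter, was thus shared by both genotypes. The sources used here do not give the promoter of the deleting enzyme, the age and sex of the animals or the number pooled. The chromatin came from a stromal vascular fraction of mixed cells, so Klf4 could be intact in the cells that are not SMC in either genotype. A single peak list stands for the whole series, it names no genotype, and the sources used here do not say which library was its ChIP sample. Intact and deleted tissue could therefore not be compared, and whether a peak depends on Klf4 was not tested.

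Klf4 is a zinc-finger transcription factor that binds GC-rich and CACCC-type DNA elements. In the vessel wall it is known for repressing contractile genes when SMC change their phenotype, and in stem cells as a factor of the pluripotency network. Mammalian genes are unevenly spread, and gene-rich, GC-rich stretches alternate with long gene-poor ones. Known gene clusters include the major histocompatibility complex with H2-K1 on chromosome 17 and the Hoxb cluster with Hoxb1 on chromosome 11. The noncoding RNA genes Malat1 and Neat1 lie on chromosome 19. Positions are in mm9, for which no annotation was used here, so whether a dense bin holds any of these genes was not examined and no peak sequence is shown.

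The bins formed a continuum with no break at the threshold. Of 1704 bins with a peak, 401 held 1 peak, 47 held 9 and 31 held 10. Among the 160 dense bins the median was 13 peaks, 110 bins held 10 to 14, 50 held 15 or more and 14 held 20 or more. In bins with 1 to 9 peaks the median was 3. Just outside the threshold, the 423 peaks in bins of 9 had a median score of 115.28 and a median width of 918 bp. Just inside it, the 310 peaks in bins of 10 had a median score of 109.09 and a median width of 925.5 bp. The score is the authors' value for each peak, with no stated scale, and the peaks listed begin just above 60.

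**Figure D1:**
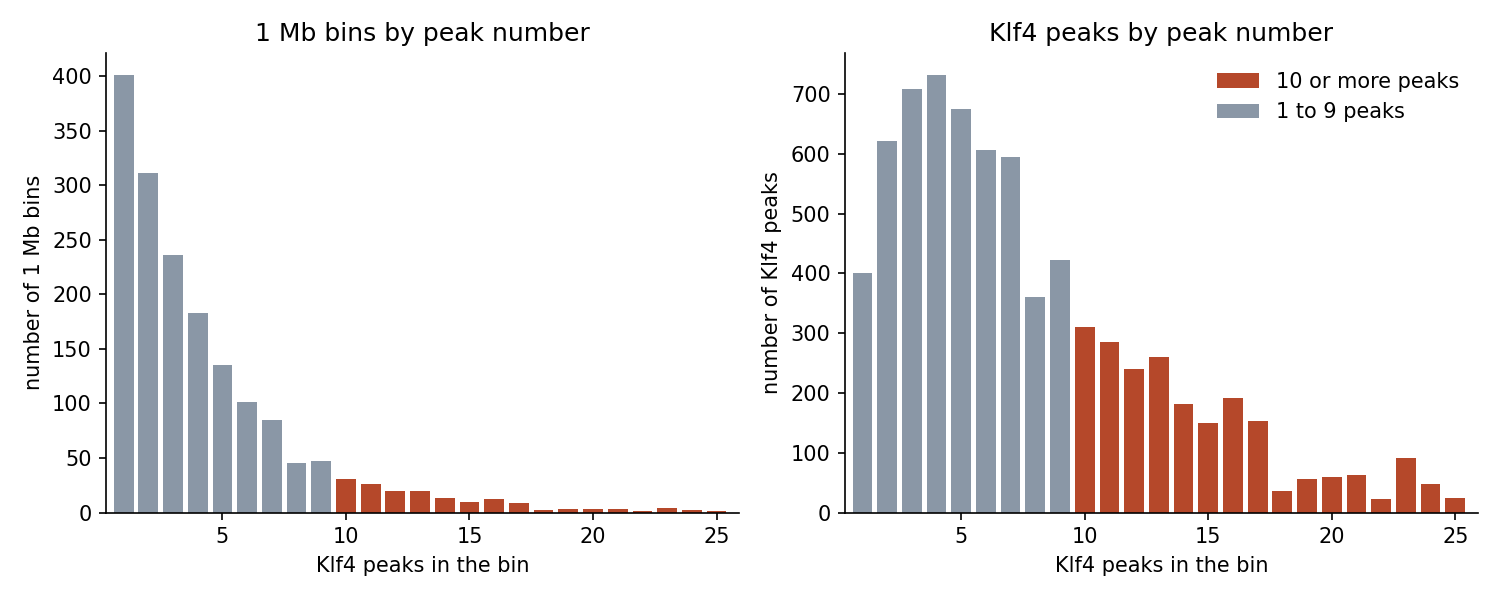
Number of 1 Mb bins (left) and of Klf4 peaks (right) by the number of peaks in the bin. Bars in red are the 160 bins with 10 or more peaks and their 2176 peaks, and the numbers fall away without a break from 47 bins of 9 to 31 bins of 10.

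Dense bins occurred on all 20 chromosomes examined and were most numerous on chromosome 11. Chromosome 11 held 22 of the 160, chromosomes 5 and 7 held 15 each, and chromosome 17 held 14, which together made 41.2% of dense bins. Chromosome 2 had 12, chromosome 4 had 10 and chromosome 19 had 9. At the other end, chromosomes 18 and X had 1 each, and chromosome 16 had 3. As a share of its bins up to the last peak, dense bins made 18.03% of chromosome 11, 14.6% of chromosome 17, 14.5% of chromosome 19 and 0.599% of chromosome X. On all autosomes together the share was 6.43%. About as many peaks of a chromosome were members as were not on chromosome 17 (50.4% members), chromosome 11 (50.1%) and chromosome 19 (48.0%), against 5.21% on chromosome 18 and 8.46% on X.

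On chromosome 11 the 22 dense bins began at 5, 6, 51, 59, 60, 68, 69, 70, 75, 77, 79, 86, 96, 97, 98, 100, 101, 102, 106, 115, 116 and 120 Mb. The fullest of them were the bins at 69 Mb with 23 peaks and at 120 Mb with 21. Between 7 and 51 Mb the chromosome had no dense bin, so 2 of the 22 lay near its start and the rest from 51 Mb onward.

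Chromosomes with more protein-coding genes tended to have more dense bins. Over the 19 autosomes, the number of dense bins and the number of protein-coding genes in RefSeq had a Spearman's rho of 0.72 and a Pearson's r of 0.73, given as a description. With the length of the autosome, taken as its number of bins up to the last peak, the number of dense bins had a rho of 0.20 and an r of 0.12. Per 1000 protein-coding genes, chromosome 11 held 13.7 dense bins, chromosome 17 held 13.2, chromosome 19 held 12.8 and chromosome 5 held 11.8. Chromosome 7, with the most protein-coding genes (2030), held 7.39. Chromosome 18 held 1.96 and X 1.04.

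**Figure D2:**
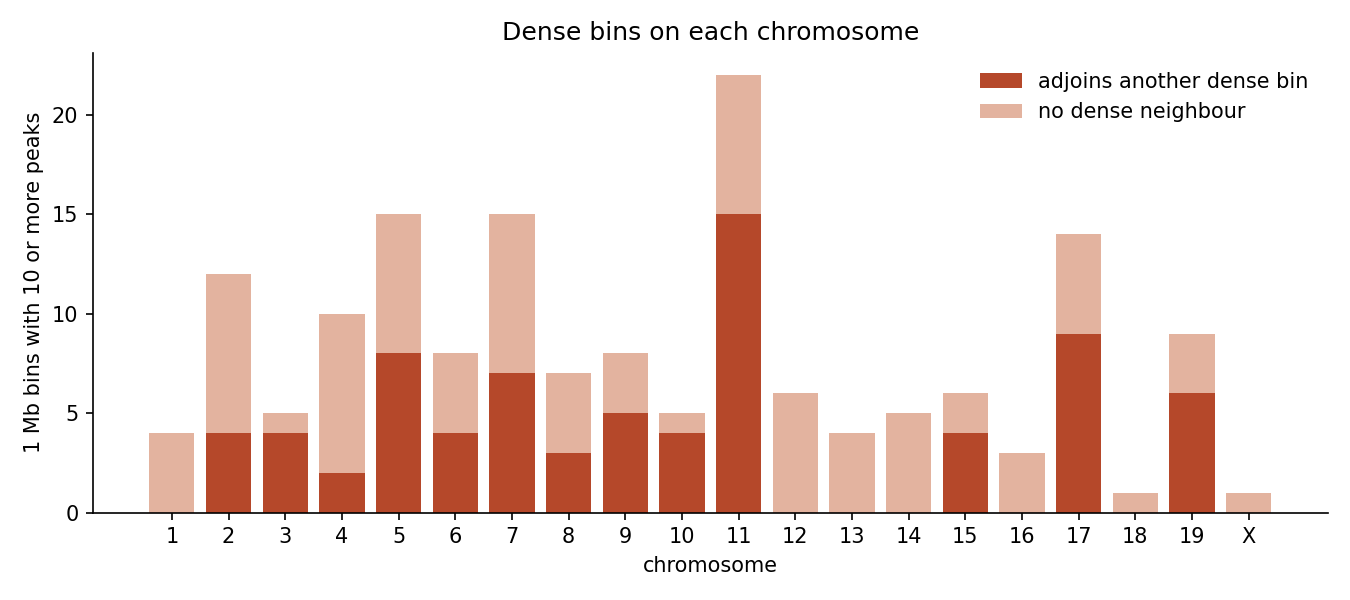
Number of 1 Mb bins with 10 or more Klf4 peaks on each chromosome, split into bins that adjoin another dense bin (dark) and bins that do not (light). Chromosome 11 has 22, of which 15 adjoin another, and chromosomes 18 and X have 1 each with no dense neighbour.

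Close to 1 in 2 dense bins adjoined another dense bin. There were 75 such bins (46.9%), in 29 runs on 13 chromosomes. Adjoining bins count together, so no interval is given for this share. Among all bins up to the last peak of each chromosome, 6.06% were dense. No reference for the share of dense bins that adjoin was computed. The other 85 stood alone. The runs comprised 18 pairs, 7 runs of 3 bins, 3 of 4 bins and 1 of 6 bins, and they held 1086 of the 2176 peaks. Chromosomes 1, 12, 13, 14, 16, 18 and X had no adjoining dense bins.

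The longest run covered 6 bins at 3 to 9 Mb on chromosome 19, with 11, 17, 24, 13, 13 and 15 peaks in order and 93 in all. It held the member with the highest score, at chr19:5798480-5802629 (score 876.24), and its median score was 110.39. The run was not filled evenly. No peak lay between 7569736 and 8787269, a stretch of 1217.5 kb that covers parts of the last 2 bins. The 15 peaks of the last bin sat in 3 of its 10 segments of 100 kb, so the label of 6 adjoining bins joins 2 separate groups of peaks.

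Runs of 4 bins lay on chromosomes 17, 7 and 5. On chromosome 17, the bins at 33 to 37 Mb held 12, 18, 23 and 16 peaks, with a median gap between neighbours of 17.5 kb and a median score of 109.28. Its peak with the highest score, 285.56, lay at chr17:34254451-34256514. On chromosome 7, the bins at 28 to 32 Mb held 15, 15, 14 and 17 peaks, with a median gap of 41.6 kb and a median score of 106.73. This run was sharply bounded, since the bins before and after it held 0 peaks. On chromosome 5, the bins at 135 to 139 Mb held 10, 12, 11 and 15 peaks, and their median score was 106.33. The peak with the highest score of this run, 522.74, lay at chr5:138187113-138189190.

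Chromosome 11 held 3 of the 7 runs of 3 bins. The bins at 68 to 71 Mb held 11, 23 and 17 peaks. Their median gap of 16.6 kb was the shortest among the 11 runs of 3 or more bins, and their scores reached 656.95. Those at 96 to 99 Mb held 14, 16 and 17 peaks and had the lowest median score of these 11 runs, 93.67. The bins at 100 to 103 Mb held 14, 13 and 17 peaks and had a median score of 113.45. Outside chromosome 11, the runs of 3 lay at 133 to 136 Mb on chromosome 7 (18, 23 and 13 peaks), 72 to 75 Mb on chromosome 8 (13, 21 and 15), 106 to 109 Mb on chromosome 9 (10, 13 and 24) and 24 to 27 Mb on chromosome 17 (17, 11 and 10). The run on chromosome 8 had the highest median score of the 11, 117.33.

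The 18 pairs were spread over 10 chromosomes. Chromosomes 2 (25 to 27 and 120 to 122 Mb), 3 (88 to 90 and 95 to 97 Mb), 5 (121 to 123 and 143 to 145 Mb), 6 (71 to 73 and 124 to 126 Mb), 10 (79 to 81 and 127 to 129 Mb) and 15 (78 to 80 and 98 to 100 Mb) had 2 each. Chromosome 11 had 3, at 5 to 7, 59 to 61 and 115 to 117 Mb. Chromosomes 4 (132 to 134 Mb), 9 (20 to 22 Mb) and 17 (46 to 48 Mb) had 1 each. The fullest pair, at 79 to 81 Mb on chromosome 10, held 22 and 23 peaks, and the pair at 95 to 97 Mb on chromosome 3 held 20 and 20.

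Peaks also stayed more frequent just beyond the dense bins than farther away, although some flanking bins held none. The 215 bins flanking a run or a lone dense bin held a median of 4 peaks (quartiles 2 and 7), against a median of 1 (quartiles 0 and 3) in the 2193 bins farther away. Of the flanking bins, 30.2% held 7 to 9 peaks and 13.95% held none. Of the farther bins, 5.11% held 7 to 9 and 38.0% held none. Among the 85 lone dense bins, 15 had at most 3 peaks in both neighbours. Across the 46 edges between adjoining dense bins, the last peak of one and the first of the next lay a median of 108.9 kb apart (quartiles 48.6 and 199.4 kb), and 12 edges had more than 200 kb.

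Peaks in dense bins had no higher median score than peaks elsewhere. Their median score was 109.98 (95% interval of the median by the binomial method 105.68 to 113.45, quartiles 81.4 and 157.0), against 112.36 (110.11 to 113.45, quartiles 82.5 and 162.2) for peaks in bins with 1 to 9. The difference was -2.37, within the error of 4.23 either way that both intervals together give it, and the intervals overlapped. The intervals cover counting error only. Peaks of 1 list share their libraries and are not replicates, so no test was made between the sets. The score did not enter the rule, but it had to pass the authors' threshold for a peak to be counted.

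Both ends of the score range gave the same picture. Scores in the upper 25% of the list were reached by 522 members, or 24.0% (Wilson 95% interval 22.2 to 25.8), beside 25% of all placed peaks by construction and 25.4% of the comparison peaks. Scores under 70 were held by 278 members, 12.8% (11.4 to 14.2), beside 12.3% of all placed peaks. Scores over 500 were held by 13 members, 0.597% (0.349 to 1.02), beside 0.48% of all placed peaks. Members made up 3 of the 10 highest scores of the list, 20 of the 50 highest (40%, interval 27.6 to 53.8), 32 of the 100 highest (32%, 23.7 to 41.7) and 138 of the 500 highest (27.6%, 23.9 to 31.7), against their 29.8% of all placed peaks. All 4 intervals included 29.8%, the widest of them, for the 10 highest, running from 10.8 to 60.3.

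The lowest median score was found not among full bins but among peaks alone in their bin. These 401 peaks had a median of 101.97 (96.82 to 107.43). Bins of 2 to 3 peaks gave 112.08 (105.88 to 115.94), bins of 4 to 6 gave 112.54 (109.05 to 115.04) and bins of 7 to 9 gave 113.92 (112.08 to 119.19). Bins of 10 to 14 then gave 109.28 (103.78 to 113.45) and bins of 15 to 25 gave 111.53 (104.77 to 117.65). From bins of 2 upward the 5 intervals overlapped one another, and no steady trend with peak number was seen. The interval of peaks alone in their bin overlapped those of bins of 2 to 3, 10 to 14 and 15 to 25. These classes mix chromosomes. Their medians were not computed without chromosome X, whose peaks in bins with 1 to 9 had a median score of 87.93. Within the fullest class, the 310 peaks in bins of 20 to 25 had a higher median, 117.4, with a wide interval (105.13 to 125.23). Across the 160 dense bins, peak number and median score had a Spearman's rho of 0.06, as a description.

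**Figure D3:**
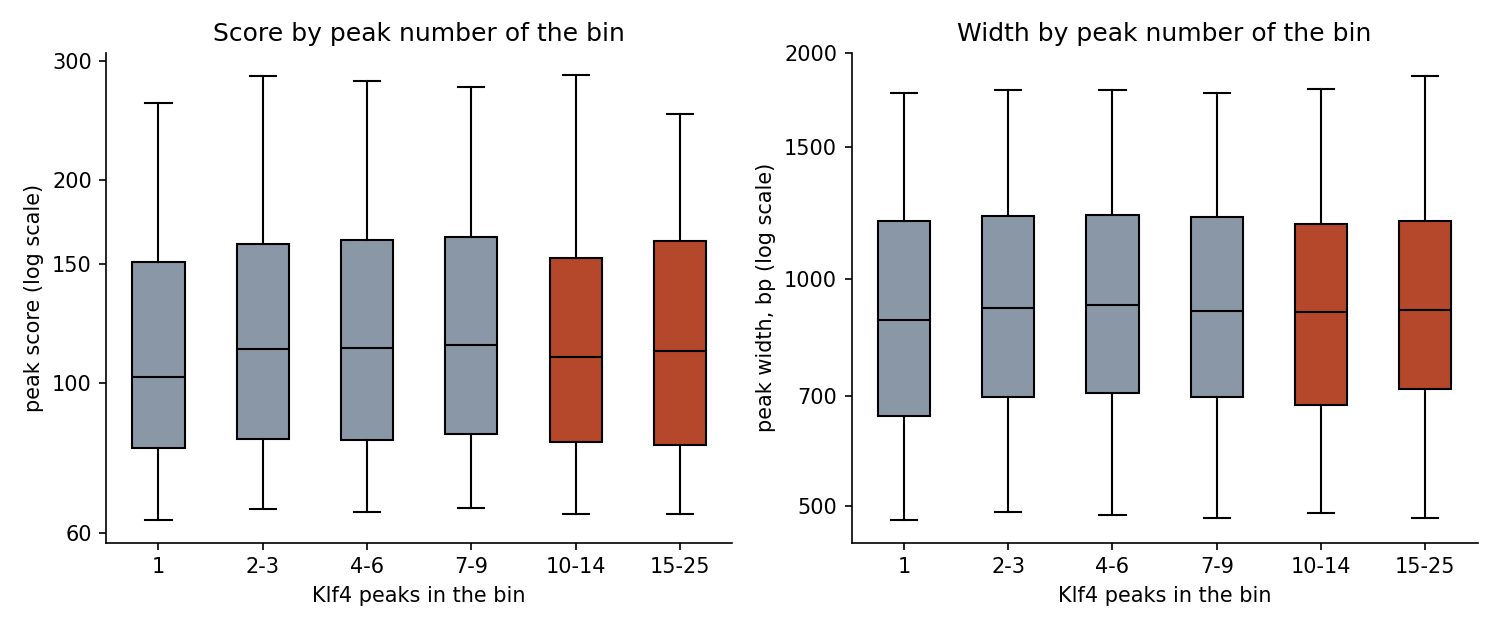
Peak score (left) and peak width in bp (right), both on log axes, by the number of Klf4 peaks in the bin. Boxes show quartiles with the median, whiskers the 5th and 95th percentiles, and red boxes the dense bins, whose medians of 109.28 and 111.53 lie close to the 113.92 of bins with 7 to 9 peaks.

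Within chromosomes, the difference in score went either way. The median score of members was higher than that of the comparison peaks on 9 chromosomes and lower on 11. Differences ran from -15.12 on chromosome 14 (57 members) to 19.36 on chromosome 18 (11 members in 1 bin). On the chromosomes with most members, it was 6.34 on chromosome 11 (114.04 against 107.70), -2.42 on chromosome 7 (101.49 against 103.91), -6.41 on chromosome 5 (102.63 against 109.04) and -4.17 on chromosome 17 (109.28 against 113.45). On chromosome 19 it was -0.045.

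Width was likewise similar. Member peaks had a median width of 908.5 bp (890 to 925, quartiles 698 and 1187 bp) and comparison peaks 914 bp (901 to 928, quartiles 698 and 1213 bp), a difference of -5.5 bp. Widths of 2000 bp or more occurred in 3.12% of members (2.47 to 3.94) and in 2.56% of comparison peaks (2.16 to 3.03), beside 2.73% of all placed peaks. Members were wider by median on 8 chromosomes and narrower on 12, from -152 bp on chromosome 1 to 143.5 bp on chromosome 18. Score rose with width to the same degree in both sets, with a Spearman's rho of 0.54 among members and 0.55 among the others. Score per kb of width had a median of 128.2 among members and 129.4 among the others. Within deciles of width, members scored lower by median in 8 of 10, with the most negative difference at -6.13. In the other 2 they scored higher, by at most 0.075.

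**Figure D4:**
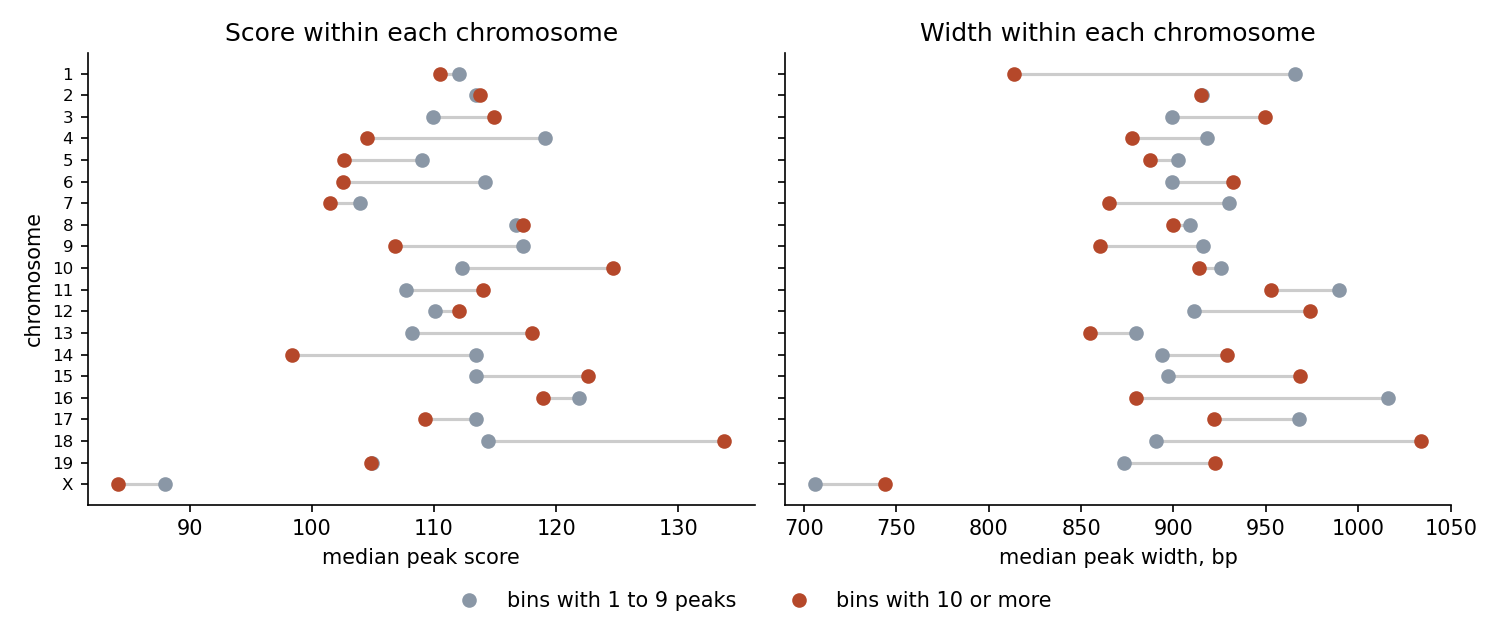
Median peak score (left) and median peak width in bp (right) on each chromosome, for peaks in dense bins (red) and in bins with 1 to 9 peaks (grey), with a line joining each pair. Red lies to the right for score on 9 chromosomes and for width on 8, and chromosome X lies lowest in both sets and both measures.

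Bins did not group peaks of like score. The intraclass correlation of log2 score, which is 1 when all peaks of a bin score alike and near 0 when bins do not differ beyond their peaks, was 0.0003 among dense bins and 0.006 among bins of 2 to 9 peaks. For log2 width it was 0.006 and 0.001. Medians of the 160 dense bins ran from 72.9 to 207.2, with quartiles of 98.2 and 123.8, and 3 bins had a median above the upper quartile of the list, 161.1. At least 1 peak of the upper 25% was present in 148 of the 160 bins. Dense bins hold many peaks by the rule, which alone makes such a peak likely, so this number is a description. No reference for it was computed.

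A few bins stood at the ends of that range and were named after their values were seen. The highest median, 207.2, belonged to a bin of 10 peaks at 70 to 71 Mb on chromosome 12, with scores from 60.2 to 485.93. The lowest, 72.9, belonged to a bin of 10 peaks at 51 to 52 Mb on chromosome 14, with scores from 62.54 to 115.99. In that bin 5 of the 10 peaks lay within 26.6 kb, the shortest window among the dense bins to hold at least 1 in 2 of a bin's peaks. The most peaks of the upper 25% in 1 bin, 9 of 20, were at 96 to 97 Mb on chromosome 3.

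The 10 members with the highest scores lay in 10 different bins on 6 chromosomes. After the peak on chromosome 19 already given, which was 4150 bp wide and ranked 4 in the whole list, came chr9:44411732-44414335 with a score of 834.03 in a bin of 17 peaks. The third was chr11:70465944-70468225, with 656.95 in a bin of 17, and the fourth chr6:86474072-86475972, with 611.05 in a bin of 11. Then followed chr19:46576336-46578894 (574.91, bin of 16), chr11:102178227-102181192 (535.5, bin of 17), chr11:86397162-86400640 (532.18, bin of 13), chr17:29169595-29171653 (524.74, bin of 11), chr19:10057159-10059038 (523.79, bin of 13) and chr5:138187113-138189190 (522.74, bin of 15). Chromosomes 11 and 19 held 3 of these each. All 10 were at least 1880 bp wide, above the member median of 908.5 bp.

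Median scores of the fullest bins lay on both sides of the median of all placed peaks, 112.0. The bin with the most peaks, 25, at 52 to 53 Mb on chromosome 7, had scores from 60.74 to 330.36 with a median of 96.7, and 3 of its peaks were in the upper 25%. Its highest peak lay at chr7:52780565-52781927. Of the 2 bins with 24 peaks, the one at 108 to 109 Mb on chromosome 9 had scores from 66.83 to 291.64 with a median of 126.21 and its highest peak at chr9:108241301-108242791. The other, at 5 to 6 Mb on chromosome 19, ran from 61.06 to 876.24 with a median of 141.8. Bins of 23 peaks at 134 to 135 Mb on chromosome 7 and 80 to 81 Mb on chromosome 10 had medians of 119.99 and 126.84. Their highest peaks, at chr7:134518687-134519644 and chr10:80260295-80262245, scored 233.56 and 324.18, with lowest scores of 66.06 and 63.55. Peaks of the upper 25% numbered 6 in the bin on chromosome 9 and 7 in the bin on chromosome 19. They numbered 6 in the bin of 23 on chromosome 7 and 8 in the bin on chromosome 10. The range of all scores in a bin can be expected to exceed the differences among medians, so the ranges of these 5 bins are a description.

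Ranks 6 to 10 by peak number showed the same spread. The bins at 69 to 70 Mb on chromosome 11 and 35 to 36 Mb on chromosome 17, with 23 peaks each, had medians of 90.6 and 103.06. Those at 79 to 80 Mb on chromosome 10 (22 peaks), 115 to 116 Mb on chromosome 5 (21) and 73 to 74 Mb on chromosome 8 (21) had medians of 122.52, 125.23 and 109.62. The single dense bin of chromosome X, at 71 to 72 Mb, held 11 peaks with scores from 72.97 to 257.93 and a median of 84.12, against 87.93 for the other peaks of that chromosome.

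Neighbouring peaks lay closer in dense bins, as the rule requires. The 2016 gaps between neighbours of the same dense bin had a median of 35.5 kb (quartiles 13.6 and 82.2 kb), against 83.4 kb (26.7 and 189.3 kb) for 3578 gaps in the comparison bins and 60.02 kb in bins of 7 to 9. The lengths of gaps follow from the peak number that chose the bins, so the shares below are a description. Gaps under 1 kb made 9.82% of gaps in dense bins (198 of 2016, Wilson 95% interval 8.60 to 11.2) and 11.7% in comparison bins (420 of 3578, 10.7 to 12.8), beside 11% of all such gaps. They were lower in dense bins on 13 chromosomes and higher on 7. Gaps of 1 to 10 kb made 10.6% in dense bins (9.30 to 12.0) and 4.36% in comparison bins (3.74 to 5.08), beside 6.6% of all.

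The commonest gaps in dense bins were of 20 to 50 kb, with 552 gaps or 27.4%. In comparison bins, gaps of 100 to 200 kb were commonest, with 748 gaps or 20.9%. Gaps under 250 bp made 6.89% in dense and 7.91% in comparison bins. Counted per peak in place of per gap, and across bin edges, 17.9% of members (16.4 to 19.6) and 16.0% of the others (15.01 to 17.0) had a neighbour under 1 kb away, beside 16.6% of all placed peaks. The order of the sets was thus opposite in the per-peak count.

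**Figure D5:**
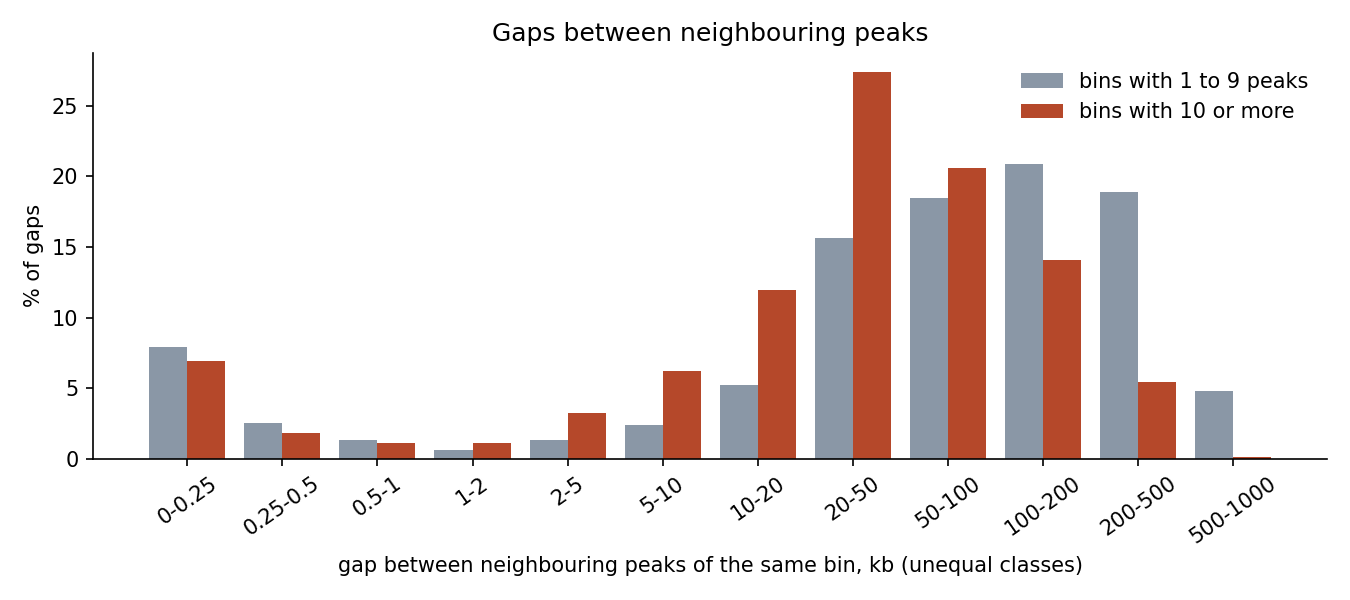
Share of gaps between neighbouring peaks of the same bin by length class in kb, in dense bins (red, 2016 gaps) and in bins with 1 to 9 peaks (grey, 3578 gaps). The classes are of unequal width. Dense bins have more gaps of 1 to 50 kb, fewer above 100 kb, and no larger share under 1 kb (9.82% against 11.7%).

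Peaks with a neighbour under 1 kb away were lower and narrower in both sets alike. Among members, the 390 with such a neighbour had a median score of 98.4 (92.5 to 102.8) and width of 772.5 bp (744 to 810), against 113.44 (109.28 to 117.65) and 944 bp (919 to 961) for the 1786 without. Among the comparison peaks, the values were 100.21 and 780 bp for 819 peaks with and 113.67 and 941 bp for 4303 without. Peaks standing apart therefore had nearly the same median score, 113.44 and 113.67, and width, 944 and 941 bp, whether or not their bin was dense.

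How peaks lay within a dense bin is given as a description, since no reference for scattered peaks was computed. The shortest window holding at least 1 in 2 peaks of a bin had a median length of 217.9 kb (quartiles 148.7 and 279.9 kb, range 26.6 to 414.0 kb), and it was under 100 kb in 15 bins. A median of 7 of the 10 segments of 100 kb held a peak, and the fullest segment held a median of 4 peaks and at most 9. All 10 segments were occupied in 2 bins, those at 52 to 53 Mb on chromosome 7 and 80 to 81 Mb on chromosome 10. Between neighbouring peaks of a bin, which leaves out empty stretches at bin ends, the longest gap had a median of 218.9 kb. It reached 564.7 kb at 36 to 37 Mb on chromosome 17, where 16 peaks shared the remainder. Member peaks covered 2.15 Mb, or 1.35% of the sequence of the dense bins, against 0.330% in the comparison bins, a contrast that follows from the peak number, since widths were alike.

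Peaks in runs lay closer together than peaks in lone dense bins, with median gaps of 31.9 and 41.5 kb, while their scores had overlapping intervals. Peaks in runs had a median score of 111.22 (106.13 to 116.29) and those in lone dense bins 108.64 (102.52 to 113.45). Median widths were 917 and 900.5 bp. Bins in runs held a median of 13 peaks and lone bins 12. Gap length follows from the peak number, so the difference in gaps is a description.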

How the data were processed

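The authors deposited 1 peak list for 2 ChIP-seq libraries. Each line has a position, a name and a score, the authors' deposited value, whose scale the sources used here do not state. Peak names begin with MACS, per the file. Bowtie, SAMtools and the build mm9 come from the submitters' processing notes. The sources used here do not state read depth, caller settings or control. No value was left unmapped.

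Starts were moved by 1 base to be 1-based. Midpoints were placed in 1 Mb bins. Gaps run from the end of a peak to the start of the next in the same bin. The median gap given for a single run of 3 or more bins also counts gaps across its inner bin edges. Medians carry binomial order-statistic 95% intervals and shares Wilson 95% intervals, both for counting error only. No test was made, since peaks are not replicates. The computation was tested on simulated data with planted bins. Members, and the lists and rules used, were chosen with earlier results of these data known. The bins named are the 10 fullest, all runs of 3 or more, and those of chromosomes 11 and X. The peaks named are the 10 members with the highest score and the top peak of each of the 5 fullest bins. Pairs, extreme bins and the top peak of the run at 33 to 37 Mb on chromosome 17 were added after their values were seen. The RefSeq table of GRCm38.p6 gave gene numbers and chromosomes only. Values were computed in Python 3.11.15 with scipy 1.17.1, pandas 2.3.3 and numpy 2.4.6, and plots drawn with matplotlib 3.10.9.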

Additional observations from a re-analysis of the deposited data

Results flagged for a closer look

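Sequences not placed on a chromosome held 15 peaks, outside all bins and comparisons. They lay on 5 such sequences, at most 5 on 1 of them, with a median score of 83.0 and a range of 65.3 to 259.9.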

How the results depend on the processing

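Other ways of drawing the bins changed how many peaks count as dense, by construction, more than how those peaks score. The number of dense bins, 160, became 61 in bins of 2 Mb with at least 20 peaks, 451 in bins of 500 kb with at least 5, 252 with at least 8 peaks, 50 with at least 15 and 19 with the upper 50% of scores. It was 150 with bins shifted by 500 kb and 134 with peaks under 1 kb apart merged. Their share of placed peaks, 29.8%, became 28.6% with bins shifted by 500 kb, 20.9% in bins of 2 Mb, 43.1% in bins of 500 kb, 40.5% with at least 8 peaks, 12.3% with at least 15, 26.3% after merging, 5.97% with the upper 50% of scores and 27.9% without chromosome 11. Of the 2176 members, 1523 (69.99%) were also in a dense bin after the shift by 500 kb, which is 73.1% of the 2084 peaks in dense bins after that shift. The share of dense bins that adjoin another, 46.9%, became 56.3% in bins of 500 kb, 60.7% with at least 8 peaks, 38% with at least 15 and 21.1% with the upper 50% of scores.

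The difference in median score, -2.37, turned to 2.74 with the upper 50% of scores and stayed between -4.60 and -0.24 in the other 10 alternatives. The difference in median width stayed between -21 and -0.5 bp in all 11. The share of gaps under 1 kb was lower in dense bins in all 10 alternatives that could give it. Differences were -2.72 to -0.65 percentage points, and merging leaves no such gap. That direction holds per gap only, and bins of 1 peak give no gap. Counted per peak in the main setting, the order was opposite (17.9% of members against 16.0% of the others), and no alternative was computed per peak. Gaps relative to even spacing of their own bin were larger in dense bins by 0.13, which became 0.0869 after merging and 0.0679 with the upper 50% of scores. This measure is lower by construction in bins of few peaks, so it was not used in the comparison. No paired analysis was possible because the 2 genotypes have 1 library each and share 1 peak list. Depth is unknown, so a bin with few peaks does not show absent binding. Gene content, mappability and assembly gaps of the bins were not tested.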

Other observations

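The number of peaks of above-median score in a dense bin is a description, since it rises with the peak number that chose the bins. In 19 of the 160 bins, 10 or more peaks scored in the upper 50% of the list, and every dense bin had at least 1 such peak. The most was 14, at 108 to 109 Mb on chromosome 9 (of 24 peaks) and 79 to 80 Mb on chromosome 10 (of 22). Also with 14 were 120 to 121 Mb on chromosome 11 (of 21) and 5 to 6 Mb on chromosome 19 (of 24). The bin at 88 to 89 Mb on chromosome 3 had 10 among 14 peaks and a lowest score of 90.8. Over all members, 48.9% were in the upper 50%, against 50.5% of the comparison peaks.

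Merging peaks under 1 kb apart left 134 of the 160 bins with 10 or more regions. It lowered the fullest bin from 25 peaks to 23 regions and the bin at 115 to 116 Mb on chromosome 5 from 21 to 17, and left the bin at 80 to 81 Mb on chromosome 10 at 23. Gaps under 1 kb were absent from 45 dense bins, and the most in 1 bin was 5, at 26 to 27 Mb on chromosome 8. With bins shifted by 500 kb, the fullest bin held 29 peaks.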
